A study of Mus musculus with 2 samples.

Results

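Anti-FLAG CUT&Tag peaks were examined at 10 genes that build and maintain mitochondria: the PGC-1 coactivators Ppargc1a, Ppargc1b and Pprc1, the nuclear factors Nrf1 and Gabpa, the mitochondrial DNA factors Tfam, Tfb1m, Tfb2m and Polg, and the antioxidant enzyme gene Sod2. Members were the peaks whose gene symbol in the authors' deposited annotation was 1 of these 10 names, and a gene without such a peak counted as 0. This gave 44 of the 99797 peaks in the list, assigned to 9 of the 10 genes. The mouse annotation used for comparison held 21911 protein-coding genes.

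CUT&Tag maps a chromatin-bound protein by tethering a cutting transposase to it through an antibody. Hippocampal tissue of C57BL/6J mice of the genotype CamK-PARIS gave 1 library with an anti-FLAG antibody, which captures the FLAG-tagged PARIS protein, and 1 library with IgG as the negative control. No treatment was given to either group, and the promoter behind the transgene, the age and the number of animals are not given in the sources used here. The authors called peaks in the anti-FLAG library against the IgG library, so the background enters only through that call. With 1 library per antibody there is no replicate error and no test between conditions, and every value below describes the peak list of 1 library. The depth of the libraries is unknown from these files.

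PGC-1 coactivators do not bind DNA themselves. They join DNA-bound factors such as NRF1, the ETS factor GABP and the estrogen-related receptors, and raise the transcription of nuclear genes for the respiratory chain. Among the targets of NRF1 and GABP are TFAM and the TFB factors, which enter mitochondria and serve the copying and expression of mitochondrial DNA. PARIS, encoded by Zfp746, is a zinc-finger repressor reported to bind insulin response sequences in the Ppargc1a promoter. In neurons, PGC-1α is known for setting mitochondrial content and antioxidant defence.

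Peaks were unevenly spread over the 10 genes. Ppargc1a had 18 of the 44 assigned peaks, Tfam had 6, Nrf1 had 5, Ppargc1b, Gabpa, Polg and Sod2 had 3 each, Pprc1 had 2, Tfb1m had 1 and Tfb2m had 0. The median was 3 peaks per gene, against 2 over all protein-coding genes. Having any assigned peak is common in this list: 9 of the 10 genes had one, and so did 71.0% of protein-coding genes. With 6 assigned peaks, Tfam stood among the 20.8% of protein-coding genes that had at least as many, and with 18 Ppargc1a stood among 3.77%.

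**Figure D1:**
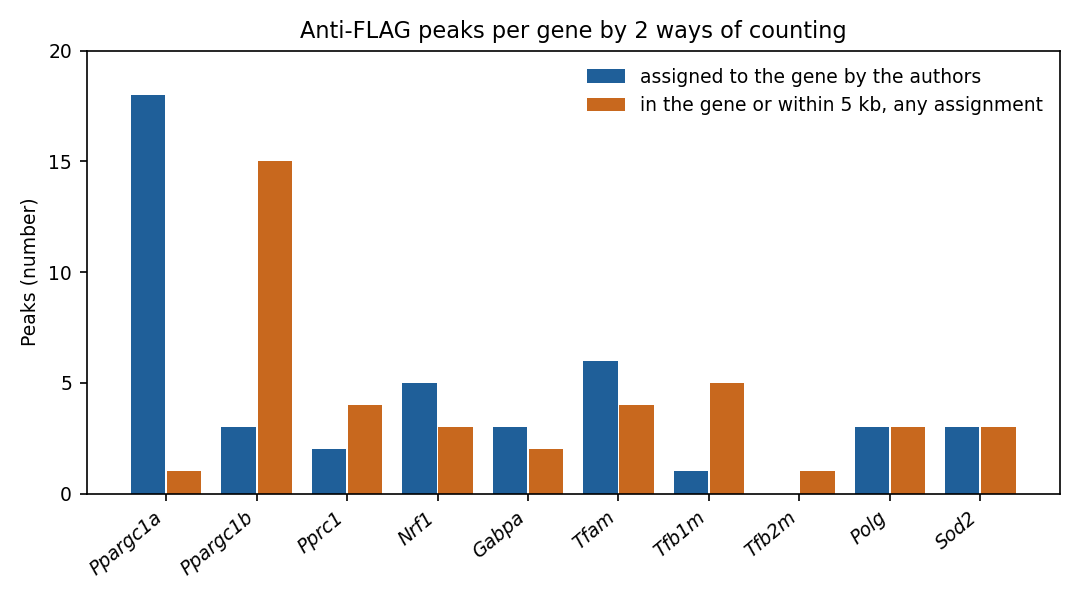
Number of anti-FLAG peaks (vertical axis) for each of the 10 genes (horizontal axis), as assigned by the authors (blue) and as found by position in the gene or within 5 kb of it whatever the assignment (orange). Ppargc1a falls from 18 to 1 peak between the 2 ways of counting, and Ppargc1b goes from 3 to 15.

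The assigned count depended on how peaks were given to genes, because the authors' table names 1 gene per peak. By position, 30 peaks lay inside the bodies of the 10 genes, and 17 of them carried the symbol of another gene. Of the 18 peaks assigned to Ppargc1a, 1 lay inside the gene. Of the 14 peaks inside Ppargc1b, 13 were assigned to Mir378a or Pde6a. The plot of peaks per gene by 2 ways of counting shows these opposite shifts.

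Peak height is given by the authors' maximum signal, the highest coverage within a peak in whole units whose scaling is not stated. Over the 44 peaks it ran from 12 to 378 with a median of 110, and the median of the whole list (assembled chromosomes only) was 101. In the highest 10% of all peaks by maximum signal were 6 of the 44, assigned to Ppargc1b, Polg (2 peaks), Sod2, Tfb1m and Nrf1. Many peaks in this list have a constant height, with a total signal of at least 99% of maximum signal times width. This was so for 22 of the 44 peaks (50%) and for 63.3% of all peaks.

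**Figure D2:**
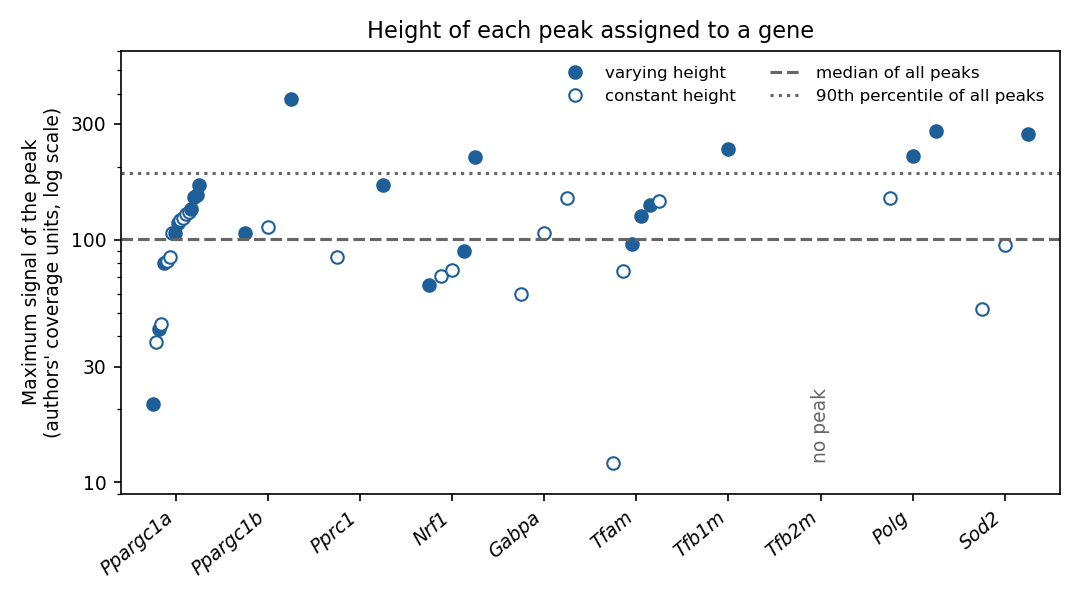
Maximum signal of every assigned peak (vertical axis, authors' coverage units, log scale) by gene; each point is 1 peak, open where its height is constant, and the lines mark the median (101) and the 90th percentile (189) of all peaks. The 6 peaks above 189 belong to Ppargc1b, Nrf1, Tfb1m, Polg and Sod2, while no peak of Ppargc1a passes 168.

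At the starts of the genes, 7 of the 10 had a peak of any assignment whose summit lay within 1 kb of the annotated 5′ end, against 37.0% of all protein-coding genes. Counting peaks of varying height alone, 5 of 10 did, against 25.8%. By the authors' own assignment and distances, which may refer to any transcript start of a gene, 6 of 10 genes had a peak within 1 kb, against 41.6% of protein-coding genes. These were Ppargc1b, Pprc1, Nrf1, Tfam, Tfb1m and Sod2. Gabpa and Tfb2m had a peak within 1 kb of their start that was assigned to the gene on the other side of a shared promoter. At Pprc1, the peak over the annotated 5′ end was likewise assigned to a neighbour, Ldb1. Ppargc1a and Polg had no peak within 1 kb of any annotated start. The gene start itself lay inside a peak in 5 of the 10 genes (Ppargc1b, Pprc1, Nrf1, Gabpa and Tfb1m), against 20.4% of all protein-coding gene starts.

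**Figure D3:**
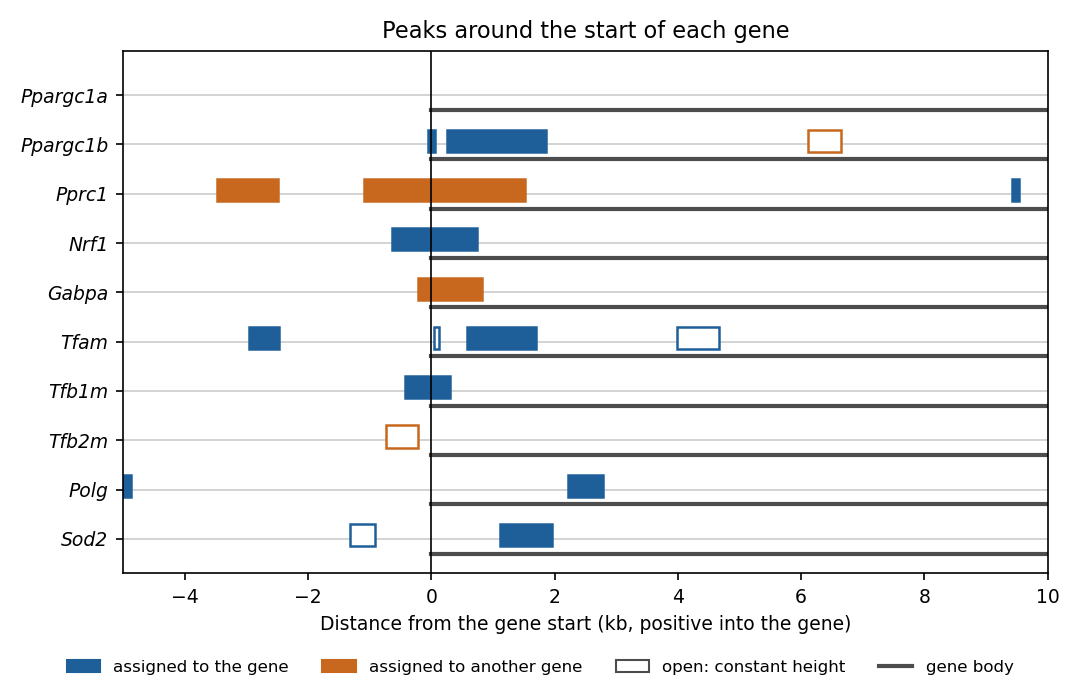
Peaks from 5 kb before to 10 kb after the start of each gene (horizontal axis, kb, positive into the gene; 1 row per gene); boxes are peaks drawn to scale, blue where assigned to the gene, orange where assigned to another gene, open where their height is constant. Boxes cross the start line at Ppargc1b, Pprc1, Nrf1, Gabpa and Tfb1m, and the row of Ppargc1a is empty.

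Ppargc1a encodes PGC-1α, the inducible coactivator of the family. The gene (ENSMUSG00000029167) lies on the minus strand at chr5:51454250-51567726 in mm10 and spans 113 kb. It has a pair of start regions, the outer at 51567726 and an inner at 51553922, where other protein-coding transcripts begin. No peak lay near either: the nearest peak edge was 40182 bp from the outer start and 36113 bp from the inner. Within the gene there was 1 peak, at chr5:51517541-51517809 in intron 2 of 12, with a constant height of 107. That is 0.881 peaks per 100 kb of gene, against 4.54 per 100 kb on chromosome 5 as a whole.

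The inner promoter of Ppargc1a is shown because it holds matches to sequences through which the gene is known to be controlled. The search used the insulin response sequence in the forms TATTTTT and TATTTTG, and the cAMP response element TGACGTCA bound by CREB, each on either strand. Capitals mark the matches. The 250 bases before the inner start (chr5:51553923-51554172, minus strand, GRCm38.p6) contained both, the insulin response sequence with its first base at -143 and the cAMP response element at -83, counted back from the start. The 250 bases before the outer start (chr5:51567727-51567976, minus strand) contained neither.
Ppargc1a inner promoter: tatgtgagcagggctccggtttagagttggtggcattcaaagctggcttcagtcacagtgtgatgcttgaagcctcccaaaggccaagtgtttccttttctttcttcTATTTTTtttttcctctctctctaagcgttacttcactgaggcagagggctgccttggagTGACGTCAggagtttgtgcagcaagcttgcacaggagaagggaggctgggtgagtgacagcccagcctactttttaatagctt
Ppargc1a outer promoter: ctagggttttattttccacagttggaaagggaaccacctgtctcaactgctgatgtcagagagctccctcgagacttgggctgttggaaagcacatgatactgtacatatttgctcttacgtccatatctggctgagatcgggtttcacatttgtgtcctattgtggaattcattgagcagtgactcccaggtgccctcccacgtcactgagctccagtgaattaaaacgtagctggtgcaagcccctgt

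Neither match was near a peak. The insulin response sequence lay 36250 bp and the cAMP response element 36189 bp from the edge of the nearest peak, the one in intron 2. RefSeq promoters run from 250 bases before to 50 after a start. Of 32851 such promoters, 11.3% held an insulin response sequence and 1.79% a cAMP response element. Among the 10 RefSeq promoters of the genes studied, 1 held the insulin response sequence (Pprc1) and 0 the cAMP response element; the inner Ppargc1a start is not among these 10. In the longer window of 1 kb before the annotated 5′ end, 4 of the 10 genes had an insulin response sequence (Pprc1, Nrf1, Tfam and Tfb2m), against 46.7% of all protein-coding genes, and the outer start of Ppargc1a had 0. A match describes letters in the window and does not show a bound site.

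The other 17 peaks assigned to Ppargc1a were intergenic and far away. Ppargc1a stands alone in a stretch of 2091 kb between the protein-coding genes Adgra3 and Dhx15, which held 47 peaks, or 2.25 per 100 kb. Upstream of the start to which the authors assigned them were 11 peaks, from -40253 to -237401 bp, and the other 6 lay past the end of the gene, from 113846 to 490080 bp downstream of the start. With the peak in intron 2 included, maximum signal ranged from 21 to 168 with a median of 112, and 9 of the 18 peaks had a constant height. For 3 more peaks the nearest protein-coding start was that of Ppargc1a but the authors named a microRNA gene, Mir6417 for 1 peak and Mir8117 for 2. The highest of the 18 assigned peaks, at chr5:51804716-51805519, reached 168 at -237401 bp. Closest upstream was the peak at chr5:51607908-51608245, with a maximum of 150 and varying height at -40253 bp.

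Among the 18 peaks of Ppargc1a, 3 had an insulin response sequence in the 200 bp window centred on the region of maximum signal. They lay at -40253, -116439 and 366868 bp and had maximum signals of 150, 107 and 43. Over all peaks, 9.95% of such windows held this sequence. A further peak, at -115511 bp with a constant height of 121, held the estrogen-related receptor element TCAAGGTCA, found in 0.429% of all summit windows. It lay within 1 kb of the peak at -116439 bp. Short stretches around these matches are shown so that the elements can be compared with the promoter above (minus strand, GRCm38.p6), in the order chr5:51608138-51608167, chr5:51684131-51684160, chr5:51186906-51186935 and chr5:51683442-51683471.
Ppargc1a, peak starting at 51607908: tgggcaaaagtcTATTTTTaaattctactg
Ppargc1a, peak starting at 51684033: ctttctctacctTATTTTTtagagacagaa
Ppargc1a, peak starting at 51186973: gaaatatttgtcTATTTTTatatatagctt
Ppargc1a, peak starting at 51683236, receptor element: gtactatcacTCAAGGTCAacgatacctga

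All 3 insulin response matches shown had the TATTTTT form on the strand of the gene, as in the inner promoter. The match at 51186906 lay in the window but just outside the edge of its peak, and the other 2 lay inside theirs. Of the 18 summit windows, 4 were at least 50% repeat-masked, among them 2 of the 3 with the insulin response sequence (65.0% masked in each). Over all peaks 15.7% of summit windows were masked to that degree.

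Pprc1 encodes PRC, the coactivator of the family that responds to growth signals. The gene (ENSMUSG00000055491) lies on the plus strand at chr19:46044886-46072915. Its annotated 5′ end belongs to a non-coding transcript and overlaps the divergent gene Ldb1, while its protein-coding transcripts begin at 46056539 or later. A peak of 2610 bp at chr19:46043797-46046406, with a maximum of 328 (98.3rd percentile of all peaks), spanned the annotated 5′ ends of both genes and was assigned to Ldb1. At the protein-coding start there was a peak of 177 bp, chr19:46056372-46056548, with a constant height of 85 (37.6th percentile). The other assigned peak lay 2208 bp before that start, at chr19:46054304-46054421, with a maximum of 168. Its summit window was 85% repeat-masked. The taller signal was thus where the gene overlaps Ldb1, not at the start of the coding transcripts. An insulin response sequence, on the other strand, began at -243 from the coding start, and the 30-base stretch that holds it lay 54 bp from the edge of the constant-height peak (chr19:46056289-46056318, plus strand, GRCm38.p6).
Pprc1 coding promoter: tttaacaAAAAATAaagtgatattttcctt

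Nrf1 encodes nuclear respiratory factor 1, an activator of nuclear genes for the respiratory chain and of Tfam. The gene (ENSMUSG00000058440, plus strand, chr6:30047988-30153458) had 5 assigned peaks with maximum signals of 65, 71, 75, 90 and 220. The peak over the start was 1377 bp wide (chr6:30047358-30048734) but low, at 90 (41.3rd percentile). The tallest of the 5 lay upstream, at chr6:30041139-30041783, 6314 bp before the start, with a maximum of 220 (93.4th percentile). The lowest, of varying height and 23078 bp before the start, had a summit window that was wholly repeat-masked. The remaining 2 had constant heights and lay in the gene, 2552 and 1725 bp from alternative starts, and the one at 1725 bp held an insulin response sequence. Inside the gene there were 1.90 peaks per 100 kb, against 3.61 on chromosome 6.

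Gabpa encodes the DNA-binding subunit of GABP, an ETS factor that acts on many nuclear genes for mitochondrial proteins. The gene (ENSMUSG00000008976, plus strand, chr16:84834925-84863779) shares its promoter region with Atp5j, a subunit gene of ATP synthase that runs the other way. None of the 3 peaks assigned to Gabpa was near its coding starts. They lay 8750, 39554 and 41557 bp beyond the start of an internal non-coding transcript, all past the end of the gene. Their constant heights were 60, 107 and 149, and the summit window of the tallest was 55% repeat-masked. The peak at the promoter, chr16:84834709-84835751, was 1043 bp wide with a maximum of 155 (83.9th percentile) and was assigned to Atp5j. It covered the annotated 5′ ends of both genes, whose shares in its signal cannot be told apart.

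Tfam encodes the protein that packages mitochondrial DNA and starts its transcription. The gene (ENSMUSG00000003923, minus strand, chr10:71225464-71238280) is 12.8 kb long and had 6 assigned peaks, 3 of them inside it, or 23.4 per 100 kb against 3.76 on chromosome 10. This density rests on 3 peaks in a short gene, 1 of them of varying height, and 92.2% of all protein-coding genes had a lower one. The 6 assigned peaks are described next. Their maximum signals were 12, 74, 96, 125, 139 and 145. The peak nearest to the gene start was 80 bp wide, with a constant height of 74 (30.2nd percentile), with its nearer edge 50 bp into the gene by the authors' distance (chr10:71238152-71238231). The widest, 1111 bp at chr10:71236582-71237692 with a maximum of 96, covered a pair of alternative coding starts further into the gene. Its summit window held an insulin response sequence and was 90.5% repeat-masked. The lowest peak of all 44, at 12, also lay in Tfam, 1026 bp into a non-coding transcript. The tallest, 145, had a constant height and lay 6555 bp upstream. No assigned peak of Tfam reached the highest 10% of peaks, although the gene had the highest density of the 10.

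Tfb1m and Tfb2m encode related proteins of the rRNA dimethylase family. TFB1M modifies the ribosomal RNA of mitochondria, and TFB2M opens the promoter for the mitochondrial RNA polymerase. Tfb1m (ENSMUSG00000036983, minus strand, chr17:3519256-3557781) had 1 assigned peak, of 726 bp at chr17:3557484-3558209 with a maximum of 237 (94.8th percentile), which spanned the gene start. A further 3 peaks inside its body were assigned to Cldn20, in a part where the annotation overlaps Tiam2. They lay 28.4, 29.3 and 38.2 kb into the gene, which is 38.5 kb long. Tfb2m (ENSMUSG00000026492, minus strand, chr1:179528055-179546267) had no assigned peak and none inside it. The nearest, chr1:179546479-179546998, was assigned to Cnst, whose start lies 0.103 kb from that of Tfb2m on the other strand. It had a constant height of 85 (37.6th percentile), and its edge was 212 bp from the start of Tfb2m. In this library, then, the start of Tfb1m lay under a tall peak of varying height, and that of Tfb2m lay beside a low constant one.

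Polg encodes the catalytic subunit of the mitochondrial DNA polymerase. The gene (ENSMUSG00000039176, minus strand, chr7:79446231-79466362) had no peak within 1 kb of any annotated start. Its 3 assigned peaks were tall for this set, at 149, 222 and 281. The peak of 222, chr7:79463574-79464147, lay 2690 bp into the gene, and that of 281, chr7:79471228-79471373, lay 4884 bp upstream (97.1st percentile). Upstream of Polg the region up to Rhcg is rich in peaks. By the nearest protein-coding start, 24 peaks would go to Polg in place of 3, and the authors assigned 18 of them to the non-coding gene Mir9-3hg.

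The promoters of the genes were searched for elements of NRF1 and GABP, which are known to act on genes of this group. Tfam, Gabpa, Polg and Tfb2m are shown because theirs held a match. No match was found in the promoters of Ppargc1a, Pprc1, Nrf1, Tfb1m and Sod2. Of the 10 genes, 9 (all but Ppargc1b) were matched in the RefSeq table (GRCm38.p6), with 10 promoters in all, since Nrf1 had 2. The ETS core CCGGAAG, bound by GABP, was found in 3 of the 10 and in 8.86% of all 32851 promoters. The NRF1 element GCGCANGCG, where N is any base, was found in 1 of the 10 and in 6.25% of all. Both strands were searched. Stretches of 30 bases around the matches follow, with the match in capitals: chr10:71238073-71238102 (minus strand), chr16:84835020-84835049 (plus strand), chr7:79466293-79466322 (minus strand) and chr1:179546245-179546274 (minus strand).
Tfam ETS core: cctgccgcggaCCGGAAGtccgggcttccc
Gabpa ETS core: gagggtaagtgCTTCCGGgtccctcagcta
Polg ETS core: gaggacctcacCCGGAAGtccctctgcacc
Tfb2m NRF1 element: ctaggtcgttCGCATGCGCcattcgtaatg

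Only the Gabpa stretch, of these 4, lay inside a peak, the one shared with Atp5j. The Tfam stretch lay 50 bp from the nearest peak edge, the Tfb2m stretch 205 bp and the Polg stretch 2146 bp. None of the 44 assigned peaks had an exact match to CCGGAAG or GCGCANGCG in its 200 bp summit window. Over all peaks these were in 1.38% and 0.706% of summit windows. Shorter or variant forms of the elements were not searched. The peak over the Gabpa start, assigned to Atp5j and so not among the 44, did have an ETS core in its summit window, on the minus strand. The summit windows of the Ldb1 peak at Pprc1 and the Cnst peak beside Tfb2m had neither.

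Sod2 encodes the manganese superoxide dismutase of the mitochondrial matrix. The gene (ENSMUSG00000006818, plus strand, chr17:13006846-13040063) had 3 assigned peaks with maximum signals of 52, 95 and 273. The tallest, chr17:13007964-13008803, was 840 bp wide, of varying height and in the 96.8th percentile of all peaks. It covered 2 internal transcript starts and began 147 bp beyond the start at 13007817, but its summit lay 1478 bp from the annotated 5′ end. The peak closest to that 5′ end, chr17:13005535-13005942, ended 904 bp before it at a constant 52, and its summit window was wholly repeat-masked. The third lay in the 3′ UTR, 8920 bp from the start to which it was assigned, at a constant 95.

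Over all 44 peaks, the insulin response sequence was in 5 summit windows, 11.4% (95% Wilson interval 4.95 to 24.0, counting error over peaks only), against 9.95% of all peaks. Those 5 peaks belonged to Ppargc1a (3), Tfam and Nrf1. The interval takes the 44 peaks as independent, which peaks of the same gene need not be, and it measures no spread between libraries. The GC content of the summit windows had a median of 47.5% and ranged from 26.5 to 79.0%, with a median of 49% over all peaks. At least 50% repeat-masked were 9 of the 44 summit windows (20.5%), against 15.7% over all peaks. By the authors' classes, 27 of the 44 peaks (61.4%) were distal intergenic, against 31.9% of all peaks, and 15 (34.1%) were in promoters within 3 kb, against 24.6%. Without Ppargc1a, 10 of 26 peaks (38.5%) were distal intergenic, and all 15 promoter peaks were among these 26.

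Ppargc1b encodes PGC-1β, the close relative of PGC-1α. The gene (ENSMUSG00000033871, minus strand, chr18:61298136-61400431) is 102 kb long, close to Ppargc1a in size, and had peaks at its start and throughout its body. A peak of 1608 bp at chr18:61398572-61400179, just inside the gene start, had a maximum of 378, rank 961 of all peaks and the tallest of the 44. A second, of 116 bp with a maximum of 107 (chr18:61400373-61400488), spanned the start. The last assigned peak lay 39902 bp upstream with a constant height of 113.

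Inside Ppargc1b a further 13 peaks lay in introns: 11 in intron 1 of 11, 1 in intron 2 and 1 in intron 9. The authors assigned 9 of them to Mir378a, a microRNA gene that lies within Ppargc1b, and 4 to Pde6a, the next gene downstream. Their maximum signals ranged from 20 to 222 with a median of 115, and 7 of the 13 had varying height. The tallest, 222 (93.6th percentile), lay 67.4 kb into the gene. In all, Ppargc1b had 13.7 peaks per 100 kb of gene, against 3.54 on chromosome 18 and 0.881 in Ppargc1a. Among the 5003 protein-coding genes of at least 50 kb, 93.7% had a lower density than Ppargc1b, and 8.85% had a lower density than Ppargc1a.

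**Figure D4:**
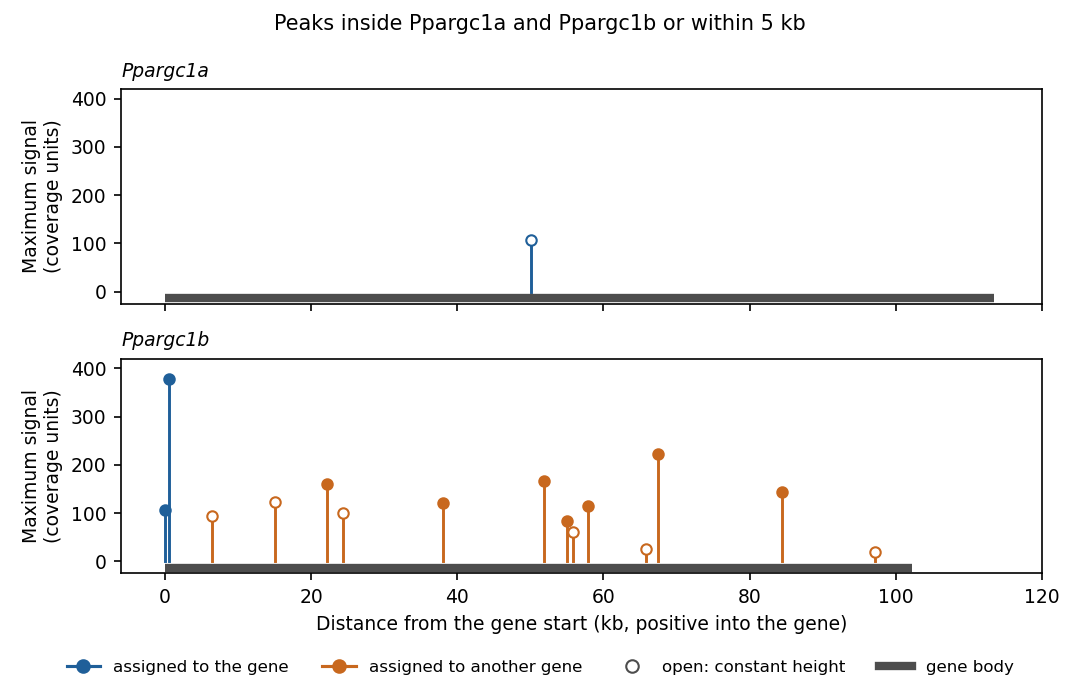
Maximum signal (vertical axis, authors' coverage units) of each peak inside Ppargc1a (top) and Ppargc1b (bottom) or within 5 kb, against its distance from the gene start (horizontal axis, kb); blue peaks are assigned to the gene, orange ones to another gene, and open circles have a constant height. Ppargc1a shows 1 peak of 107 and Ppargc1b 15 peaks of up to 378.

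A wider list of 50 genes of the pathway was counted beside these 10. Of the 12 regulators that act on PGC-1α, 9 had a peak of any assignment within 1 kb of their gene start, beside the 37.0% of all protein-coding genes. The highest assigned peaks within 1 kb of a start were at Mef2d (358), Crtc1 (330) and Crtc2 (299); Mef2d is a transcription factor of the MEF2 family, and Crtc1 and Crtc2 encode coactivators of CREB. Leaving out peaks of constant height, 5 of these 12 regulators had one, beside 25.8% of all protein-coding genes. Of 12 partners of PGC-1, 7 had such a peak and 6 had one of varying height, with the highest at Esrra (290), an estrogen-related receptor, Yy1 (220) and Creb1 (212). The peak of Esrra lay within 1 kb of an alternative start and not of its gene start. Of 12 antioxidant and uncoupling genes, 7 had one and 6 had one of varying height, led by Slc25a27 (247), Sod1 (161) and Gpx4 (158), of which Gpx4 had its peak at an alternative start.

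The machinery of mitochondrial DNA had the smallest share of the wider groups. Of 14 genes, 4 (28.6%) had a peak within 1 kb of the gene start, beside 37.0% of all protein-coding genes. A peak of varying height was there in 3, beside 25.8%. Any assigned peak was found for 8 of the 14, beside 71.0%. Their highest were at Mterf3 (307), Twnk (219), the gene of the replicative helicase, and Polrmt (149), the mitochondrial RNA polymerase, whose peak was at an alternative start. Over the 50 genes, 27 (54.0%) had a peak within 1 kb of the start, beside 37.0% of all protein-coding genes. Of the 50, 20 had one of varying height, beside 25.8%. Each count is a description of this list of peaks, with no test.

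**Figure D5:**
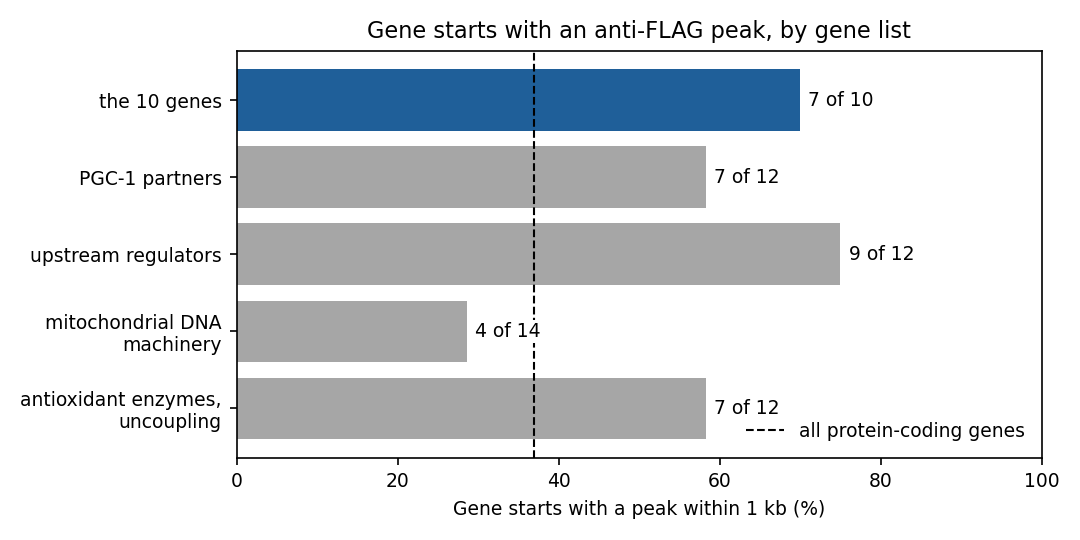
Percentage of gene starts with a peak of any assignment within 1 kb (horizontal axis) for the 10 genes (blue) and 4 further groups of the pathway (grey), with the counts beside the bars and all protein-coding genes as the dashed line (37.0%). The bars run from 4 of 14 for the mitochondrial DNA machinery to 9 of 12 for upstream regulators, of which 5 have a peak of varying height.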

How the data were processed

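Per the labels' protocols, reads from CUT&Tag of mouse hippocampus were trimmed and aligned to mm10 with Bowtie2, low-quality and duplicate reads were removed, and SEACR called peaks in the anti-FLAG library with the IgG library as control; deepTools made the signal tracks, which were not used here. Tool versions, SEACR settings and the annotation tool are not given in the sources used here. The deposited peak list gives each peak a total and a maximum signal (coverage in whole units, scaling not stated). The authors' annotation table gives 1 gene symbol and a signed distance in bp from the region of maximum signal to a transcript start. Its total signal equalled that of the peak list for all annotated peaks (100%). Ranks and percentiles of single peaks were over all 99797 peaks. Medians and shares of all peaks were over the 99707 peaks on chromosomes 1 to 19, X and Y. An annotation was present for 99782 of the peaks.

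Peaks were set against GENCODE M21 genes and the GRCm38.p6 sequence, the same build as mm10, with Python 3.11.15, pandas 2.3.3, pysam 0.24.0 and statsmodels 0.14.6. The annotated 5′ end of the gene was its start, a summit lay near a start within 1 kb, and a height was constant where total signal was at least 99% of maximum times width. Percentiles are over the maximum signal of all peaks. Summit windows of 200 bp and RefSeq promoters (250 bases before to 50 after a start) were searched on both strands. Interval assignment, distances and motif search were tested on simulated data with known answers.

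All 10 genes are named. Of the wider list, genes are named by the up to 3 highest peaks within 1 kb of a start per group, and neighbours where a peak at a member's start was assigned to them. Other neighbours were named after their values were seen. The members and lists were chosen with earlier results of these data known. With 1 anti-FLAG library no test between samples was run, and the signal of the IgG library was not analysed here. The alternatives changed the peak subset, the distance, the window and the way peaks are given to genes.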

Additional observations from a re-analysis of the deposited data

How the results depend on the processing

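Over 7 results, 53 alternative settings were computed, of which 33 gave a value within the tolerance (1.5 times for a count, 0.5 points for a median percentile) and 20 did not. The number of assigned peaks (44) became 22 without peaks of constant height, 26 with peaks above the median maximum signal, 6 and 7 with the highest 10% by maximum and by total signal, and 87 when each peak went to the nearest protein-coding start. Genes with an assigned peak (9) fell to 5 with the highest 10% by maximum. Genes with an assigned peak within 1 kb (6) became 3 with peaks above the median and 3 with the highest 10% by maximum. Gene starts with a peak within 1 kb (7) became 4 above the median, 3 in the highest 10% by maximum and 4 in the highest 10% by total. The share of all protein-coding genes was not computed for these subsets by signal, so these gene counts have no background beside them. The median over the 10 genes of the percentile of their highest peak was 90.2, against 64.7 over all protein-coding genes and 82.2 over those with a peak. It became 46.7 with the highest 10% by maximum, 91.2 by nearest start, 89.4 by position in or within 5 kb of the gene, and 91.7 ranked by total signal. In the summit window, 5 of the 44 peaks had the insulin response sequence, against 9.95% of all peaks. This became 2 of 26 above the median, 0 of 6 in the highest 10% by maximum and 0 of 7 by total. By nearest start it became 8 of 87, and in a 400 bp window 13 of 44 (29.5%, against 19.3% of all peaks). In the whole peak the count was 7 (15.9%, against 17.7% of all peaks). Subsets hold fewer peaks, and wider windows more bases, by construction. Assignment by nearest start searched 87 windows in place of 44. For the remaining changes the cause was not tested. The count of genes with an NRF1 element or ETS core was 4 in RefSeq promoters, where 13.9% of all promoters had one, and 4 within 500 bases either side of the start, where 28.1% of protein-coding genes did. No paired analysis was possible because there was 1 library per antibody. Depth and the scaling of the signal are unknown, so low peaks cannot be set against a detection limit.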
